A study of Mus musculus with 6 samples.

Results

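CaMKII, the calcium/calmodulin-dependent protein kinase II of the postsynaptic density, calmodulin that switches it on, and neurogranin that holds calmodulin back were followed here through their messenger RNAs. The 9 genes were taken by name from the deposited count table of 21958 protein-coding genes: the kinase subunits Camk2a, Camk2b, Camk2d and Camk2g, the kinase inhibitors Camk2n1 and Camk2n2, the calmodulin genes Calm2 and Calm3, and Nrgn. All 9 had counts in every library and were among the 12255 genes that passed the filter on low counts.

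The RNA came from synaptoneurosomes, a brain fraction rich in pinched-off pre- and postsynaptic terminals, of FVB mice aged 6 to 8 weeks, from the hippocampus and the cortex next to it, with tissue of several mice pooled. In the first group, called polyribosomal here, synaptoneurosomes were given 50 µM NMDA and 10 µM glutamate for 30 s at 37°C, then 120 µM of the NMDA receptor blocker APV for 20 min, and RNA was taken from the light and heavy polyribosome fractions of a sucrose gradient. In the second, called total, unstimulated synaptoneurosomes were kept on ice with cycloheximide, which arrests ribosomes, and all of their RNA was taken. Each group had 3 libraries. Stimulation, temperature and fraction changed together, so their effects cannot be told apart.

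When calcium enters through NMDA receptors it binds calmodulin, and calcium-loaded calmodulin opens the kinase subunits, which then phosphorylate one another and stay active after calcium falls. Neurogranin binds calmodulin at low calcium through an IQ motif, and the small proteins Camk2n1 and Camk2n2 inhibit the active kinase. The Camk2a and Nrgn mRNAs are known to travel into dendrites, which is why their presence on ribosomes at the synapse is of interest.

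The calmodulin genes differ as nucleic acid while they code for the same protein, and the inhibitors share their inhibitory stretch, so the sequences show what the read counts could separate. In the Gencode vM21 transcripts of GRCm38, the coding sequences of Calm2 and Calm3 (447 bases without the stop codon) differed at 78 bases, an identity of 82.6%, and all 149 residues were the same. The stretch from coding base 37 to 96 is shown for Calm2 (chr17:87435873-87435932, minus strand) and Calm3 (chr7:16917667-16917726, minus strand), where capitals mark the 12 of 60 bases that differ:
Calm2: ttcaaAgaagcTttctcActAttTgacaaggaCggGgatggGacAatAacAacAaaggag
Calm3: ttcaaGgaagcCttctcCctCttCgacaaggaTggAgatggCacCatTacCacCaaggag

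The longest run of identical residues shared by the inhibitors covered 15 codons and lay within the kinase-inhibiting region. It is shown for Camk2n1 (coding bases 160 to 204, chr4:138455345-138456755, plus strand) and Camk2n2 (coding bases 163 to 207, chr16:20620206-20621032, minus strand). An intron lies inside the run in both genes, and capitals mark the 11 of 45 bases that differ:
Camk2n1: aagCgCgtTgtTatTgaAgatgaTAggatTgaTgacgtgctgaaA
Camk2n2: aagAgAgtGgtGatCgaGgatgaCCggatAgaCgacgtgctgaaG

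In the Nrgn coding sequence, which has 78 codons, the IQ motif lay in 1 exon, inside coding bases 82 to 144 (chr9:37546046-37546108, minus strand), and its codons are in capitals:
Nrgn: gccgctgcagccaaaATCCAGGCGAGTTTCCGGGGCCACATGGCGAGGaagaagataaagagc

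Depth differed between the groups. The counts on protein-coding genes summed to between 5294482 and 7361580 in the polyribosomal libraries and to between 1044955 and 3738022 in the total libraries, with total replicate 3 the shallowest. Levels are given as CPM, the share of a library's counts on the usual per-million scale, with edgeR's TMM factors, and positive log2 fold changes mean more on polyribosomes. For levels compared between genes, CPM were divided by the exon length in kilobases. Libraries with the same replicate number were taken as 1 preparation, because their deviations from the group means moved together, and a fit with the replicate number as a block is given where it changed a call. All p-values measure the spread between these libraries of pooled tissue.

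Between the groups, 0 of the 9 genes passed an adjusted p of 0.01 by edgeR (quasi-likelihood test, Benjamini-Hochberg adjustment over all genes), where 3.07% of all genes tested passed, 0.710% higher and 2.36% lower on polyribosomes. Scaling by total counts alone also called 0 of the 9 and shifted the split over all genes to 0.343% and 2.99%, in all 3.33%. At an unadjusted p under 0.05 there were 4 of the 9 genes against 32.5% of all genes. Of these, 2 were higher (Nrgn and Camk2n2, against 15.4% of all genes) and 2 lower (Camk2d and Camk2n1, against 17.1%). At an adjusted p of 0.05 there were 3 (Camk2d, Camk2n1 and Nrgn), against 15.4%. DESeq2 called 1 of the 9, Nrgn, where it called 7.14% of all genes (3.31% higher, 3.83% lower). Without the filter on low counts edgeR also called Nrgn alone, against 6.23% (2.84% higher, 3.38% lower).

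With the replicate block the same 4 genes as at an unadjusted p under 0.05 passed an adjusted p of 0.01 in edgeR, 2 in each direction, where 25.0% of all genes passed (11.8% higher, 13.2% lower). With the block and an offset for GC content and exon length there were 2, Nrgn higher and Camk2n1 lower, against 15.6% (8.58% higher, 7.01% lower). With the offset alone there were 0 of the 9, against 0.751% (0.180% higher, 0.571% lower). The members did not shift one way: 5 log2 fold changes were positive and 4 negative, with a median of 0.03 against 0.00 over all genes tested. In the 3 same-numbered pairs, 3 genes (Camk2n2, Calm3 and Nrgn) were higher on polyribosomes every time and 2 (Camk2d and Camk2n1) were lower every time. Over all genes these shares were 30.2% and 30.6%. For 3 of the 9 genes (Nrgn above, Camk2d and Camk2n1 below) the CPM of the groups did not overlap, which held for 36.2% of all genes, 17.4% above and 18.9% below.

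**Figure D1:**
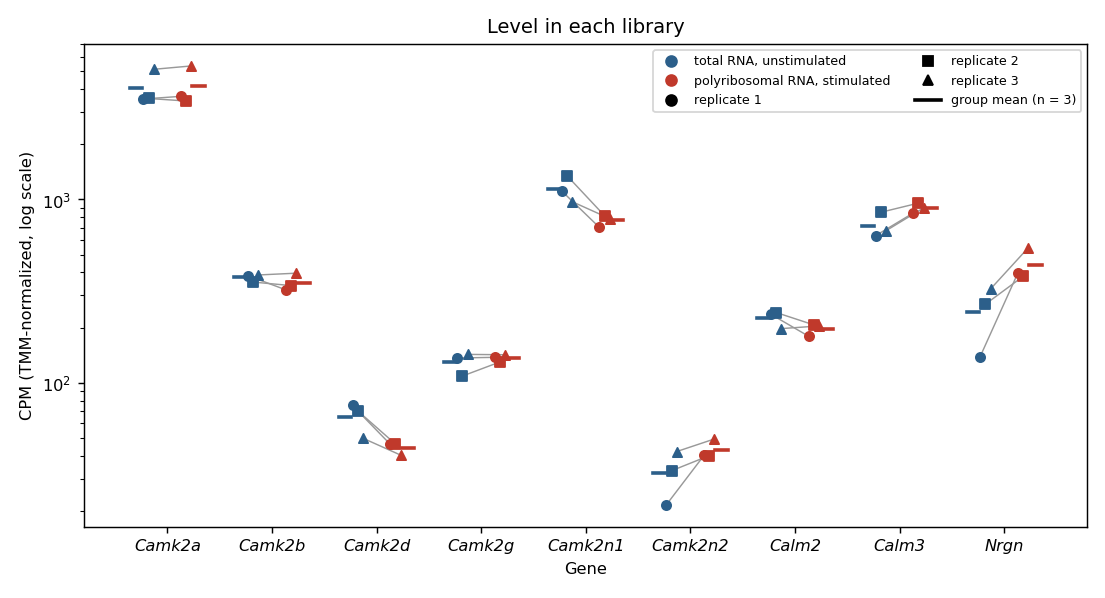
CPM (log scale) of the 9 genes in each of the 6 libraries, with total RNA in blue, polyribosomal RNA in red, a symbol for each replicate number, lines joining libraries of the same number and short bars for the group means. The lines of Nrgn rise and those of Camk2n1 and Camk2d fall in all 3 pairs, while Camk2a is higher in both libraries of replicate 3 than in the other libraries.

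The member with the highest level per kilobase of exon was Camk2a, the alpha subunit that with beta makes up most forebrain CaMKII (chromosome 18, 60925618 to 60988152 of GRCm38). It had 26987, 22849 and 25974 counts in polyribosome replicates 1 to 3, which is 3651, 3442 and 5348 CPM. In total replicates 1 to 3 it had 14213, 10614 and 5345 counts, or 3529, 3555 and 5126 CPM. Both libraries of replicate 3 were well above the other 4, and the ranges of the groups overlapped almost fully. Its mean level ranked 15th among all genes on polyribosomes and 12th in total RNA. Its difference on the log2 scale was 0.03 (SE 0.22, adjusted p = 0.95, edgeR), with a 95% interval from -0.45 to 0.50, and turned to -0.08 with scaling by total counts alone. With the replicate block the interval narrowed to -0.24 to 0.28. The pairs gave 0.05, -0.05 and 0.06. Without the block the value was 0.23 without total replicate 3 and -0.19 without polyribosome replicate 3, neither past the threshold.

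Camk2b, the beta subunit that also binds actin (chromosome 11, 5969644 to 6066362), had 2379, 2252 and 1924 counts on polyribosomes and 1547, 1058 and 404 in total RNA, which is 322, 339 and 396 CPM against 384, 354 and 387. The groups overlapped, with a log2 fold change of -0.09 and a 95% interval from -0.44 to 0.26. Camk2g, the gamma subunit (chromosome 14, 20734875 to 20794088), had 1018, 863 and 691 counts on polyribosomes and 550, 325 and 149 in total RNA, or 138, 130 and 142 CPM against 137, 109 and 143. The groups again overlapped, and the difference was 0.08 on the log2 scale, from -0.27 to 0.44. It turned to -0.02 with scaling by total counts alone, which moved the median of all genes to -0.11, and to -0.03 without total replicate 2. Neither gene passed in the fit with the block.

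The delta subunit was lower on polyribosomes. Camk2d (chromosome 3, 126596302 to 126846326), a broadly expressed subunit best known from the heart, had 342, 308 and 196 counts on polyribosomes and 303, 210 and 52 in total RNA. This corresponds to 46.3, 46.4 and 40.4 CPM against 75.2, 70.3 and 49.9 CPM. Every polyribosomal library lay below every total library, although total replicate 3 with its 52 counts came close. On the log2 scale the difference was -0.58 (SE 0.18, adjusted p = 0.0415, edgeR). With the block it was -0.58 again and passed the threshold (adjusted p = 2.69e-04, edgeR). After the offset for GC content and length was added to the block it was -0.22 and no longer passed (adjusted p = 0.181, edgeR). It also missed the threshold in the blocked fit without the first pair (adjusted p = 0.043, edgeR) and without the second (adjusted p = 0.0495, edgeR).

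Per kilobase of exon, Camk2a took 85.6% ± 1.98 (SD, n = 3) of the 4 subunits' level on polyribosomes and 84.8% ± 2.42 in total RNA. Camk2b followed with 9.48% ± 1.14 and 10.2% ± 1.59, Camk2g with 4.31% ± 0.73 and 4.06% ± 0.60, and Camk2d with 0.64% ± 0.17 and 0.95% ± 0.33. The shares of the groups overlapped for Camk2a, Camk2b and Camk2g, and for Camk2d as well, where replicate 3 was lowest in both groups. Within each same-numbered pair the shares of Camk2b and Camk2d were lower on polyribosomes. The log2 ratio of Camk2b to Camk2a counts, which does not depend on library scaling, was -3.53 ± 0.21 on polyribosomes and -3.42 ± 0.27 in total RNA. It differed by -0.12, less than the spread between libraries (p = 0.5, two-sided exact permutation test of 3 against 3, which cannot go below 0.1). This was 1 of 4 ratios compared, and over them its Benjamini-Hochberg adjusted p was 0.5 (exact permutation). The test did not use the pairing for any of the 4 ratios.

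**Figure D2:**
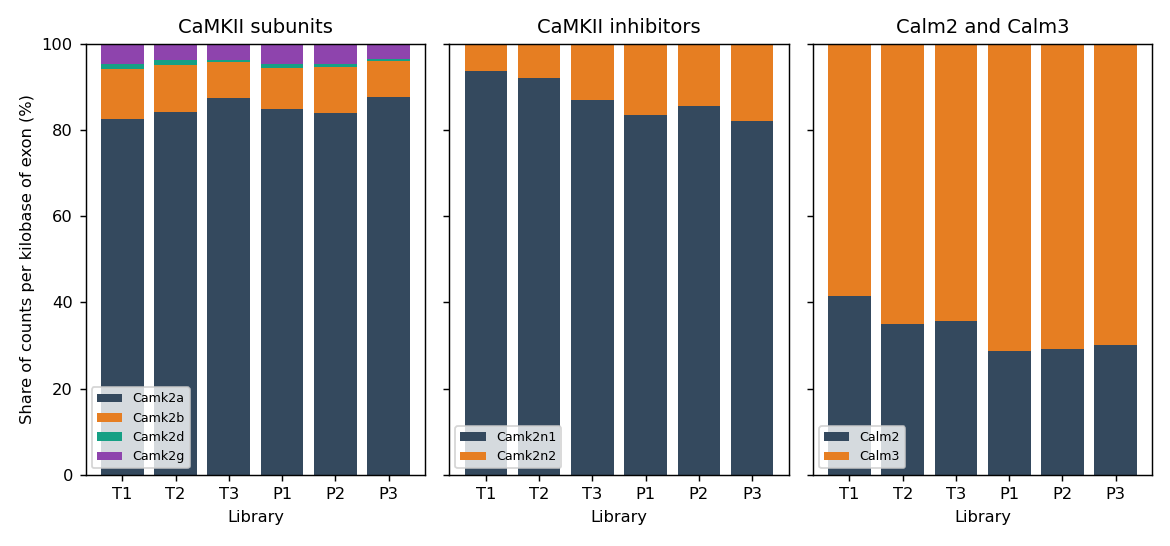
Share of counts per kilobase of exon (%) that each gene took of the sum over the genes in its panel, in total replicates 1 to 3 (T1 to T3) and polyribosome replicates 1 to 3 (P1 to P3), as stacked bars. The subunit shares overlap between the groups, although those of Camk2b and Camk2d are lower on polyribosomes in each same-numbered pair. Camk2n2 and Calm3 take larger shares in each polyribosomal library than in any total library.

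The fold changes of the inhibitors had opposite signs by group only and with the block, and both were negative with the GC and length offset, alone or beside the block. Camk2n1 (chromosome 4, 138454314 to 138460123) had 5206, 5407 and 3817 counts on polyribosomes and 4480, 4027 and 1014 in total RNA, or 704, 814 and 786 CPM against 1112, 1349 and 972 CPM. All polyribosomal libraries were below all total libraries. The difference was -0.58 on the log2 scale (SE 0.18, adjusted p = 0.0432, edgeR), a level 0.67 times that in total RNA, and the pairs gave -0.66, -0.73 and -0.31. With the block it passed the threshold (adjusted p = 1.49e-04, edgeR). In the blocked fit without the first pair it missed the threshold (adjusted p = 0.0158, edgeR), as it did without the second (adjusted p = 0.122, edgeR). The offset for GC content and length beside the block moved it further from 0, to -0.66 (adjusted p = 2.67e-06, edgeR).

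Camk2n2 (chromosome 16, 20619215 to 20621287) had far fewer counts, with 297, 266 and 240 counts on polyribosomes and 87, 99 and 44 in total RNA. Its levels of 40.2, 40.1 and 49.4 CPM overlapped with those of total RNA, 21.6, 33.2 and 42.2 CPM, but within each pair the polyribosomal library was higher. Its difference of 0.49 on the log2 scale (SE 0.22, adjusted p = 0.141, edgeR) passed with the block (0.49, adjusted p = 0.00601, edgeR). It depended on replicate 1, where the pair differed by 0.90. Without total replicate 1 it was 0.22, and in the blocked fit without that pair 0.24 (adjusted p = 0.429, edgeR). It missed the threshold without the second pair as well (adjusted p = 0.0369, edgeR). The offset for GC content and length beside the block turned it to -0.22 (adjusted p = 0.268, edgeR). An intron of a predicted gene on the opposite strand, Gm49333, covers Camk2n2, without a shared exon. Camk2d overlapped 8 annotated genes, including an antisense one, and Camk2a overlapped 2, also without a shared exon. The sources used here do not say if reads were counted by strand.

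Per kilobase, Camk2n2 made up 16.2% ± 1.66 of the inhibitors' level on polyribosomes, against 9.02% ± 3.53, without overlap of the ranges. Set against the main kinase subunit, the log2 ratio of Camk2n1 to Camk2a counts was -2.37, -2.08 and -2.77 on polyribosomes and -1.67, -1.40 and -2.40 in total RNA. It was lower on polyribosomes in each pair, with a mean difference of -0.59 ± 0.19 (SD, n = 3), but total replicate 3 lay below 2 of the polyribosomal libraries. The exact permutation test (two-sided), which does not use the pairing, gave p = 0.3, or 0.4 adjusted over the 4 ratios.

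Among the calmodulin genes, Calm3 was higher and Calm2 lower on polyribosomes, neither past the threshold. Calm3 (chromosome 7, 16915379 to 16924114) had 6231, 6339 and 4372 counts on polyribosomes and 2554, 2541 and 704 in total RNA, or 843, 955 and 900 CPM against 634, 851 and 675 CPM. Total replicate 2 reached into the polyribosomal range, by a small margin over polyribosome replicate 1. The estimate was 0.32 on the log2 scale, with a 95% interval from -0.06 to 0.70, and 0.33 with the block (adjusted p = 0.0297, edgeR). With the GC and length offset beside the block it was -0.05.

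Calm2 (chromosome 17, 87433412 to 87446935) had 1327, 1374 and 992 counts on polyribosomes and 952, 722 and 206 in total RNA. This gave 180, 207 and 204 CPM against 236, 242 and 198 CPM, so that replicate 3 showed no fall (pair value 0.05) where the other pairs gave -0.40 and -0.22. The estimate was -0.20, from -0.55 to 0.15. In the blocked fit without the third pair it was -0.32 and passed (adjusted p = 0.00595, edgeR).

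Of the summed level of Calm2 and Calm3 per kilobase, Calm3 took 70.6% ± 0.68 (SD, n = 3) on polyribosomes, against 62.6% ± 3.52, without overlap. The log2 ratio of Calm2 to Calm3 counts was -2.23, -2.21 and -2.14 on polyribosomes and -1.42, -1.82 and -1.77 in total RNA. It differed by -0.52, in the same direction in all 3 pairs (p = 0.1, two-sided exact permutation test, the smallest it can give, and 0.4 adjusted over the 4 ratios). The GC content of their transcripts was 42.7% for Calm2 and 58.3% for Calm3, and with the offset for GC content and length beside the block their log2 fold changes lay near each other, at -0.18 and -0.05.

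By group only and with the block, Nrgn had the largest fold change of the 9 genes, while with the GC and length offset, alone or beside the block, and without total replicate 1 that of Camk2n1 was larger in size. Neurogranin (chromosome 9, 37544492 to 37552904) had 2927, 2524 and 2648 counts on polyribosomes and 559, 801 and 339 in total RNA. In CPM these were 396, 380 and 545 against 139, 268 and 325. All polyribosomal libraries were above all total libraries, and the total libraries were spread widely, with replicate 1 lowest. On the log2 scale the difference was 0.87 (SE 0.26, adjusted p = 0.0374, edgeR), 1.82-fold with a 95% interval from 1.24 to 2.67. It lay above 96.9% of the genes tested. The pairs gave 1.51, 0.50 and 0.75. With the block the log2 fold change was 0.92 (adjusted p = 8.62e-09, edgeR), and it passed in each blocked fit of 2 pairs, at 0.61 to 1.14. DESeq2 (adjusted p = 0.00952, Wald test) and edgeR without the filter on low counts (adjusted p = 0.00298) also called it. With the GC and length offset it was 0.42 beside the block, where it still passed (adjusted p = 0.00302, edgeR). With the offset alone it was 0.38 and did not pass (adjusted p = 0.256, edgeR). Without total replicate 1 the unpaired value was 0.56.

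Set against calmodulin mRNA, which codes for the protein it binds, Nrgn was also higher in each pair. The log2 ratio of Nrgn counts to the sum of Calm2 and Calm3 was -1.37, -1.61 and -1.02 on polyribosomes and -2.65, -2.03 and -1.42 in total RNA. Total replicate 3 reached above polyribosome replicate 2, so the groups overlapped. The difference was 0.70 (p = 0.2, two-sided exact permutation test, and 0.4 adjusted over the 4 ratios), in a test that does not use the pairing. The pairs gave 1.28, 0.41 and 0.41, and without total replicate 1 the difference was 0.39. Per kilobase, there were 0.53, 0.44 and 0.67 Nrgn to 1 of Calm2 and Calm3 together on polyribosomes, against 0.20, 0.32 and 0.49.

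**Figure D3:**
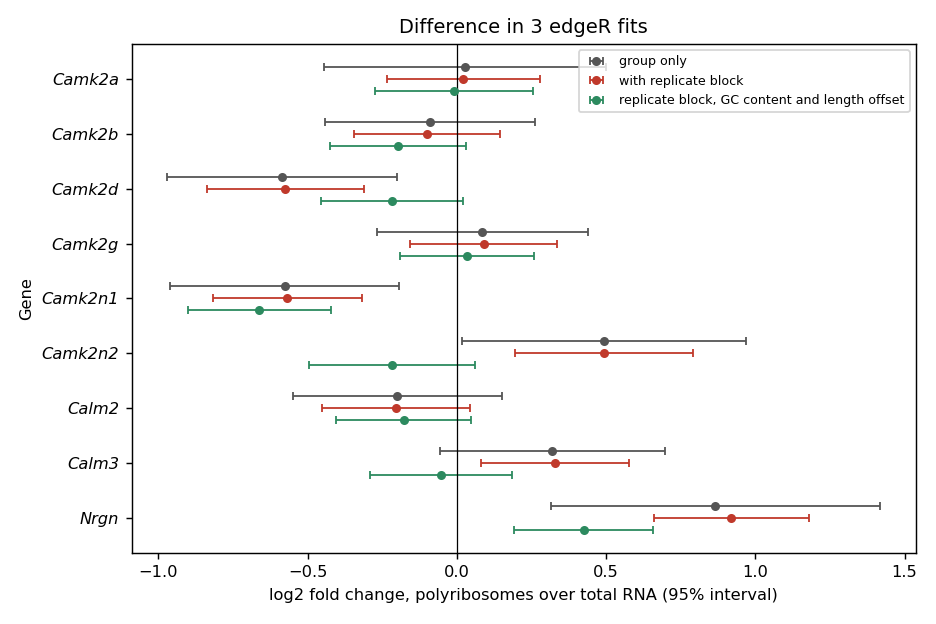
Log2 fold change of polyribosomal over total RNA with its 95% interval for the 9 genes, in edgeR's fit by group only (grey), with the replicate block (red), and with the block and an offset for GC content and exon length (green). The intervals of Nrgn and Camk2n1 stay clear of 0 in all 3 fits, those of Camk2d and Camk2n2 reach across 0 with the offset, and those of Camk2a, Camk2b, Camk2g and Calm2 cross 0 throughout.

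Ordered by CPM per kilobase, total RNA ran from Camk2a (719 ± 162) over Calm3 (314 ± 50.3), Camk2n1 (258 ± 42.8), Calm2 (187 ± 20.0), Nrgn (168 ± 65.7), Camk2b (84.7 ± 4.12), Camk2g (33.9 ± 4.74) and Camk2n2 (25.0 ± 7.99) to Camk2d (7.64 ± 1.58). Neighbours whose ranges over the 3 libraries overlapped were Calm3 and Camk2n1, Calm2 and Nrgn, and Camk2g and Camk2n2. On polyribosomes Nrgn (303 ± 62.7) stood before Camk2n1 (173 ± 12.9) and Calm2 (163 ± 12.6), and the other genes kept their order. There the overlapping neighbours were Calm3 and Nrgn, Camk2n1 and Calm2, and Camk2g and Camk2n2. The lengths come from a later annotation than the one used for counting.

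GC content moved with the difference across the whole table. Over 12238 genes with a known sequence, the Spearman correlation across genes of the log2 fold change with the GC content of the longest transcript was 0.54, and with exon length -0.37. These points share the 6 libraries and are not independent. Over 5 equal bins of genes from the lowest GC content to the highest, the median log2 fold change went from -0.38 over -0.18, -0.02 and 0.16 to 0.35. Nrgn (58.6% GC), Calm3 (58.3%) and Camk2n2 (63.9%) belonged to the highest bin, and Camk2d (43.9%) and Calm2 (42.7%) to the lowest. Camk2n1 (53.7%), Camk2a (53.3%), Camk2b (53.9%) and Camk2g (51.8%) lay in the next to highest. Of the genes that passed with the block, Camk2d, Camk2n2 and Nrgn thus differed in the direction of their bin and Camk2n1 against it. Whether GC content is the source of the differences was not tested beyond the offset.

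**Figure D4:**
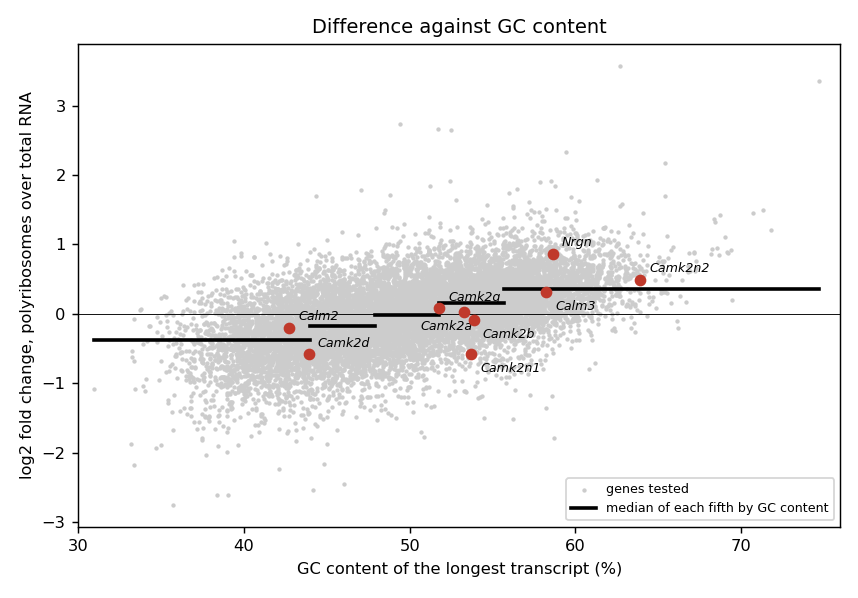
Log2 fold change of polyribosomal over total RNA against the GC content of the longest transcript (%), with genes tested in grey, the 9 genes in red, and black bars for the median of each of 5 equal bins of genes by GC content, from -0.38 to 0.35. Nrgn lies above the bar of its bin and Camk2n1 below that of its own, while Calm3 lies close to its bar.

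Genes around this pathway were counted in 5 lists, and log2 fold changes given with an adjusted p are those of the fit with the replicate block. Other kinases of the calmodulin-dependent family were mostly negative: 8 of 9 log2 fold changes, with a median of -0.19. In edgeR's test none passed an adjusted p of 0.01 (3.07% of all genes did), and DESeq2 called 0 (7.14% of all genes). At an unadjusted p under 0.05, 3 were lower and 0 higher, against 17.1% and 15.4% of all genes. With the block 3 of 9 were lower and 0 higher, against 13.2% and 11.8% of all genes. These were Camk4, a nuclear kinase that acts on transcription factors (-0.89, adjusted p = 7.13e-09 with the block), Camk1d (-0.47, adjusted p = 0.00143 with the block) and Dapk1, a death-associated kinase (-0.40, adjusted p = 0.00888 with the block), all by edgeR.

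The other small calmodulin-binding proteins did not follow Nrgn in value. Gap43, its presynaptic relative, had a log2 fold change of -0.30 (standard error 0.19) and Pcp4l1 of 0.00 (standard error 0.24). Pcp4 had -1.22 (standard error 0.46) at only 1.70 ± 1.19 CPM on polyribosomes against 3.90 ± 1.38. None of the 3 passed by edgeR without the block (3.07% of all genes did), with the block (25.0%), or by DESeq2 (7.14%). At an unadjusted p under 0.05, 1 was lower, against 17.1% of all genes. The difference from Nrgn was not tested.

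Among 18 enzymes that calmodulin regulates, edgeR's test called 0, against 3.07% of all genes, and DESeq2 called 1, against 7.14%. At an unadjusted p under 0.05, 1 was higher and 4 lower, against 15.4% and 17.1% of all genes. The median was -0.10. With the block 3 of 18 were lower and 1 higher, against 13.2% and 11.8% of all genes, which is near that background. The lower ones were the calcineurin subunits Ppp3cb (-0.89, adjusted p = 1.20e-08, edgeR) and Ppp3r1 (-0.74, adjusted p = 1.16e-06, edgeR), and the phosphodiesterase Pde1a (-0.77, adjusted p = 6.57e-07, edgeR). The plasma membrane calcium pump Atp2b2 was higher (0.40, adjusted p = 0.00876 with the block, edgeR).

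Of 13 anchors and substrates of CaMKII at the synapse, edgeR called 0, against 3.07% of all genes, and DESeq2 called 1, against 7.14%. At an unadjusted p under 0.05, 2 were higher and 1 lower, against 15.4% and 17.1% of all genes. The median was 0.07. With the block 3 of 13 were higher and 1 lower, against 11.8% and 13.2% of all genes. Those higher were the obligatory NMDA receptor subunit Grin1 (0.50, adjusted p = 9.68e-04, edgeR), the scaffold Dlg4, also named Psd95 (0.42, adjusted p = 0.00553, edgeR), and the scaffold Shank3 (0.46, adjusted p = 0.00273, edgeR). Lrrc7, or densin, which binds the alpha subunit, was lower (-0.60, adjusted p = 5.41e-05 with the block, edgeR). Grin2b, the receptor subunit to which active CaMKII docks, had a log2 fold change of -0.32 (standard error 0.20) and did not pass.

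In the list of mRNAs known in dendrites, 8 of 9 genes were above 0 on the log2 scale, and the median was 0.27. By edgeR none was called, against 3.07% of all genes, and by DESeq2 none, against 7.14%. At an unadjusted p under 0.05, 1 was higher and 0 lower, against 15.4% and 17.1% of all genes. With the block 3 of 9 were higher and 0 lower, against 11.8% and 13.2% of all genes, namely Actb (0.57, adjusted p = 1.46e-04), Ppp1r9b, the actin-binding spinophilin (0.52, adjusted p = 0.00109), and the scaffold Shank1 (0.42, adjusted p = 0.00892), by edgeR. Map2, a dendritic microtubule protein, had 0.06 (standard error 0.18), close to the value of Camk2a.

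The genes whose CPM followed a member most closely over the 6 libraries were also listed, out of 6648 genes with a mean of at least 20 CPM. For Camk2a they were Crocc, Abl1, Pelp1, Ctif and Lzts1, with Pearson coefficients of log2 CPM from 0.978 to 0.984. For Nrgn they were Serf2 (0.996), Src (0.994), Ssbp4 (0.991), Mgat5b (0.988) and Jund (0.988), whose log2 fold changes ranged from 0.39 to 0.87. With 6 libraries and 6648 genes searched, such coefficients are a description only. Among the members, Nrgn and Camk2n2 had the highest coefficient, 0.98, and Nrgn and Camk2d the lowest, -0.92.

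Markers of other cells differed between the groups as well. All 8 astrocyte markers had positive log2 fold changes (median 0.57), and their summed level was 44441 to 48726 CPM on polyribosomes and 34211 to 40057 CPM in total RNA. Slc1a2 took most of that sum, with means of 31981 and 27872 CPM. It did not pass with the block (0.20, adjusted p = 0.27, edgeR). The 7 oligodendrocyte markers (median 0.43; Cldn11 passed without the block) summed to 10964 to 14815 and 7902 to 11060 CPM, and the 8 microglia markers (median 0.40) to 939 to 1082 and 597 to 839 CPM. With the block 5 of 8 astrocyte, 4 of 7 oligodendrocyte and 4 of 8 microglia markers were higher and 0 lower, against 11.8% and 13.2% of all genes. No marker of any list was at 0 in all libraries. The 5 markers of excitatory neurons, the cells that make most Camk2a and Nrgn, had a median of -0.11 and summed to 1710 to 1888 and 1286 to 1522 CPM. Slc17a7, the vesicular glutamate transporter, took most of that sum and was higher by 0.40 on the log2 scale with the block (adjusted p = 0.00865, edgeR). The 6 markers of inhibitory neurons had a median of 0.42 with 3 higher and 2 lower in the blocked fit (against the same shares of all genes). The 6 endothelial markers had a median of 0.21, with 1 higher and 0 lower in that fit. The 6 synaptic markers had one of 0.03, with 2 higher and 0 lower. The part of these cells in the differences of Nrgn, Camk2n1, Camk2n2 and Camk2d was not tested. The paper divides each preparation into aliquots, so the marker values compare polyribosomal with total RNA and do not measure numbers of cells.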

How the data were processed

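Messenger RNA was measured in 6 libraries, 3 of polyribosomal RNA from NMDA receptor-stimulated and 3 of total RNA from unstimulated mouse synaptoneurosomes. The authors depleted ribosomal RNA, mapped reads to GRCm38 (mm10) with STAR (2.5.2b in the submitters' processing notes) and used Gencode vM6 basic gene models. What they deposited are raw counts, 1 whole number for each protein-coding gene and library. The paper describes strand-specific dUTP libraries and the labels a TruSeq kit. The same deposited table holds the authors' DESeq2 comparison: a mean normalized signal, log2 fold changes with standard errors, a Wald score, and p-values, none of which was used.

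Counts were scaled with TMM, filtered with filterByExpr (12255 genes kept) and compared by group with the quasi-likelihood test of edgeR 4.0.16 (R 4.3.3), with Benjamini-Hochberg adjustment over all genes and the study's threshold of 0.01. Standard errors were the log2 fold change divided by the root of F. Exon length and GC content came from Gencode vM21 (GRCm38) for 99.9% of these genes, and the offset was fitted per library with splines of both. DESeq2 1.42.0, other scalings, no filter and left-out libraries were alternatives. The fit by group only was run on simulated counts that held no pairing and no GC or length trend. The fits with the block or the offset were not tested in this way.

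The paper divides each preparation into aliquots and the deposited columns of a replicate number share a label. Deviations of same-numbered libraries from their group means correlated across genes with 0.37, 0.26 and 0.38, and same-numbered libraries were treated as pairs. Replicates differed by more than sampling noise (chi-square per degree of freedom of 3.58 or more). The 9 genes and the lists were chosen with earlier results of these data known. The genes named were the members, the list genes past the threshold with or without the block, the highest or lowest of a list with none, and the 5 genes closest in pattern to Camk2a and to Nrgn. Grin2b, Map2, Gap43, Slc17a7, Slc1a2, Cldn11 and the overlapping Gm49333 were named after their values were seen. A gene that the design also held is not reported here, so the ratio of Nrgn to calmodulin uses the sum of Calm2 and Calm3.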

Additional observations from a re-analysis of the deposited data

How the results depend on the processing

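Of the 9 genes, 0 were called in the fit by group only. The count stayed at 0 with RLE or upper quartile scaling, total counts only, the GC and length offset alone, and with each library left out (0 to 0). It was 1 with DESeq2 and with no expression filter (Nrgn both times), 4 with the replicate block, 2 with the block and the GC and length offset (Camk2n1 and Nrgn), and 3 at an adjusted p of 0.05 (Camk2d, Camk2n1 and Nrgn). Blocked fits without 1 pair, chosen after seeing the data, gave 1 to 5. Nrgn was the member called in each of the 3. Over all genes, 376 were called. This became 1042 with no expression filter, 3063 with the replicate block (1537, 1200 and 3072 without pair 1, 2 and 3), 1911 with the block and the GC and length offset, 92 with the offset alone, 693 with DESeq2, 1884 at an adjusted p of 0.05, and 22 to 258 without 1 library, lowest without total replicate 2. The cause was not tested. The offset turned Camk2n2 and Calm3 negative, and total counts only turned Camk2a and Camk2g negative. Camk2a was also negative with the block and offset, and in blocked fits without pair 1 or pair 3. The same held without polyribosome replicate 3, total replicate 1 or total replicate 2, and for Camk2g without total replicate 2. None of these values passed the threshold, and 15 of 153 single-gene values under the alternatives were newly past it. The 4 ratios kept their direction, with left-out libraries giving -0.27 to -0.01 for Camk2b to Camk2a, -0.87 to -0.37 for Camk2n1 to Camk2a, -0.59 to -0.40 for Calm2 to Calm3, and 0.39 (without total replicate 1) to 1.00 for Nrgn to Calm2 and Calm3. The block changed no other call among the 9 genes. Total replicate 3, with 1044955 counts, limits the precision of Camk2d and Camk2n2, which had 52 and 44 counts there.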
